A study of Homo sapiens with 6 samples.

Results

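The expression of 10 WNT signalling genes was examined in MDA-MB-231 cells, an established human triple-negative breast cancer line, with and without knockdown of YAP1. The genes were given by symbol: the ligands WNT5A, WNT5B and WNT7B, the receptors FZD1 and FZD2, the co-receptor LRP6, β-catenin (CTNNB1), the scaffold AXIN2 and the secreted proteins DKK1 and DKK3. All 10 were found among the 60612 gene identifiers, and all 10 passed the filter on low values. RNA came from cells carrying a control hairpin in stable form (Sh-NC, labelled wild type) or a hairpin RNA that targets YAP1 (Sh-YAP1, labelled YAP1 knockdown), on day 3 and with no treatment, with 3 libraries in each group. The hairpins were delivered by lipid transfection. The labels name a single knockdown hairpin group, so an effect of the hairpin outside YAP1 cannot be told apart from the loss of YAP1. The study's methods say in general terms that its data came from independent experiments. Whether this covers the 3 libraries of a group, and whether the lines were clones or pools, is not given in the sources used here, so the p-values measure the spread between these libraries.

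WNT proteins are secreted, lipid-modified ligands that bind Frizzled receptors. In the canonical branch, a ligand joins a Frizzled to LRP5 or LRP6, the destruction complex built on AXIN and APC is held back, and β-catenin reaches TCF/LEF factors in the nucleus. AXIN2 and DKK1 are themselves targets of β-catenin and restrain the pathway, which makes them feedback genes. In the non-canonical branch, WNT5A and WNT5B signal through Frizzled and ROR receptors to cell polarity and calcium without β-catenin, and in breast cancer this branch is known for its part in cell movement. YAP1, the effector of the Hippo pathway, is a transcriptional co-activator that binds DNA through TEAD factors.

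The knockdown was visible in YAP1 RNA in every library. YAP1 was 28.1, 26.2 and 22.9 FPKM for Sh-NC and 3.35, 2.67 and 2.58 FPKM for Sh-YAP1 (log2 fold change -2.79, adjusted p = 0.0018, limma), where FPKM is fragments scaled by transcript length and by the fragments sequenced. The study names CTGF (CCN2) and CYR61 (CCN1) as YAP1 target genes. CCN2 had a log2 fold change of -0.21 (adjusted p = 0.13, limma) and CCN1 of -0.0004 (adjusted p = 0.999, limma). The sum of all values of a library was between 467493 and 475116 FPKM. The files hold no counts, so the depth of the libraries is unknown and no counting interval is given. Defining markers of the line were present, with VIM between 1645 and 2303 FPKM, while ESR1 and PGR, which this line lacks, did not exceed 0.07 and 0.01 FPKM. Of 6 luminal markers 3 reached the filter (EPCAM, FOXA1 and GATA3), of 4 fibroblast markers 2 (COL1A1 and PDGFRB), and of 4 leukocyte markers 0. No marker of the 4 lists passed the adjusted threshold, although 3 of the 6 markers of the line and 1 of the 3 tested luminal markers were lower in Sh-YAP1 without overlap, against 14.7% of all genes tested. Their part in the results was not tested.

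The 10 genes covered a wide range of levels, which can be set side by side because FPKM is scaled by transcript length. CTNNB1 and DKK1 stood highest, above 97.1% and 95.9% of the 14770 genes tested by their mean over the 6 libraries. FZD2 came next, above 79.4%, and WNT7B, LRP6 and FZD1 lay near the middle, above 54.4%, 51.9% and 49.6%. WNT5A was above 34.3%, and AXIN2, DKK3 and WNT5B were the weakest, above 18.2%, 14.2% and 11.2%. This order of means was the same in Sh-NC and Sh-YAP1. In Sh-NC, the libraries of CTNNB1 and DKK1 overlapped, as did those of WNT7B with LRP6, LRP6 with FZD1, AXIN2 with DKK3 and DKK3 with WNT5B. In Sh-YAP1, CTNNB1 lay apart from DKK1 and AXIN2 apart from DKK3, and the other 3 pairs of neighbours still overlapped.

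**Figure D1:**
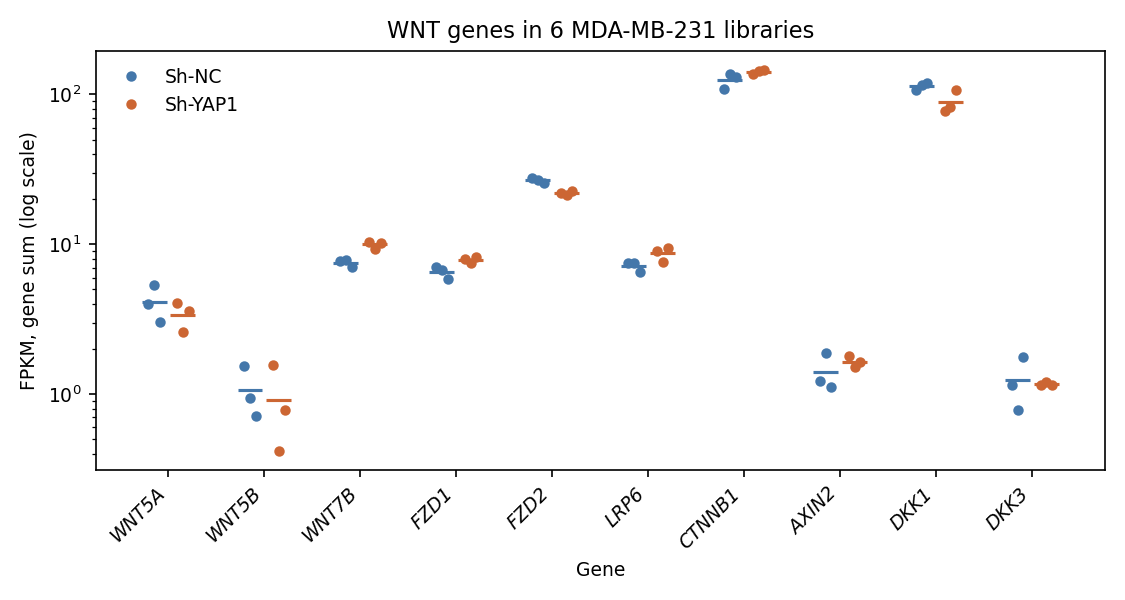
Gene sums of the 10 WNT genes in FPKM on a log axis, with 1 point per library and a line at the mean of the 3 libraries of each group. CTNNB1 and DKK1 lie between 77.5 and 146 FPKM in every library, and WNT5B, AXIN2 and DKK3 lie under 2 FPKM throughout.

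None of the 10 genes passed an adjusted p of 0.05 between Sh-YAP1 and Sh-NC (limma, Benjamini-Hochberg over all genes tested), against 3.38% of all genes, 1.75% higher and 1.62% lower in Sh-YAP1. An unadjusted p under 0.05 was reached by 4 of them, WNT7B, FZD2, DKK1 and FZD1, against 21.9% of all genes. The groups did not overlap for 5 of the 10, against 29.4% of all genes. Of these, WNT7B, FZD1 and LRP6 were higher in Sh-YAP1 (14.6% of all genes), and FZD2 and DKK1 were lower (14.7% of all genes). The median log2 fold change was 0.06 over the 10 genes and -0.001 over all genes tested, and the median size without regard to sign was 0.22 against 0.16. Fold changes here are differences of log2(FPKM + 1), which understate the ratio of weakly expressed genes. RNA from a whole culture cannot tell fewer cells expressing a gene from less RNA per cell.

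**Figure D2:**
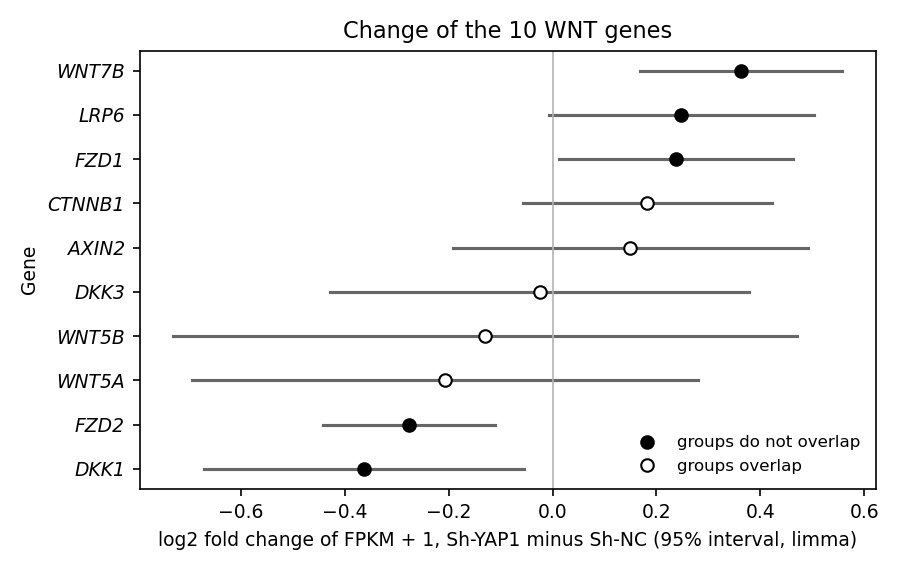
Log2 fold change of FPKM + 1, Sh-YAP1 minus Sh-NC, for the 10 WNT genes, with the 95% interval from limma as a line. Filled points mark the 5 genes whose 3 Sh-YAP1 and 3 Sh-NC libraries do not overlap; the intervals of WNT7B, FZD1, FZD2 and DKK1 do not include 0, although none of the 4 passed the adjusted threshold.

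Among WNT5A, WNT5B and WNT7B, the clearest separation was that of WNT7B, a ligand which can act through β-catenin. WNT7B was 7.71, 7.80 and 7.09 FPKM for Sh-NC and 10.3, 9.33 and 10.3 FPKM for Sh-YAP1. Every Sh-YAP1 library was at least 1.53 FPKM above the highest Sh-NC library. The mean was 7.53 ± 0.39 FPKM for Sh-NC against 9.97 ± 0.56 FPKM for Sh-YAP1 (SD, n = 3 in each), or 32.4% higher. It differed by 0.36 in log2 fold change (standard error 0.08, 95% interval 0.17 to 0.56), with an adjusted p of 0.0681 from limma. By exact permutation of the 6 libraries, the p was 0.1, the lowest value that this design can reach, and this two-sided p is the same for each of the other 4 genes without overlap.

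WNT5A, the main ligand of the non-canonical branch, was 3.97, 5.35 and 3.01 FPKM for Sh-NC and 4.03, 2.58 and 3.57 FPKM for Sh-YAP1. The groups overlapped, and the spread within Sh-NC was wider than the distance between the means. The log2 fold change was -0.21 with a 95% interval from -0.69 to 0.28 and an adjusted p of 0.6 (limma). It was -0.04 without Sh-NC replicate 2, -0.07 without Sh-YAP1 replicate 2, -0.31 without Sh-YAP1 replicate 1 and -0.37 without Sh-NC replicate 3. WNT5A shares its locus with the antisense gene WNT5A-AS1 (2.17 FPKM for Sh-NC and 2.36 FPKM for Sh-YAP1), and the sources used here do not say whether strand was used in the quantification.

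WNT5B, the close relative of WNT5A, was 1.54, 0.95 and 0.71 FPKM for Sh-NC and 1.56, 0.42 and 0.78 FPKM for Sh-YAP1. The groups overlapped almost completely. The log2 fold change of -0.13 had a 95% interval from -0.73 to 0.47, the widest of the 10 genes. It turned to 0.03 without Sh-NC replicate 1 and to 0.07 without Sh-YAP1 replicate 2. With pseudocounts of 0.1 and 0.01 in place of 1 it was -0.29 and -0.34. FBXL14 overlaps WNT5B on the opposite strand and was at 4.42 FPKM for Sh-NC and 3.72 FPKM for Sh-YAP1.

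The Frizzled receptors FZD1 and FZD2 lay on opposite sides. FZD2 was 27.9, 26.8 and 25.7 FPKM for Sh-NC and 21.8, 21.2 and 22.8 FPKM for Sh-YAP1. All Sh-YAP1 libraries were at least 2.94 FPKM below the lowest Sh-NC library. The mean was 26.8 ± 1.07 FPKM for Sh-NC against 21.9 ± 0.77 FPKM for Sh-YAP1 (SD, n = 3 in each), with a log2 fold change of -0.28 (standard error 0.07, 95% interval -0.44 to -0.11, adjusted p = 0.0857, limma).

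FZD1 was 7.10, 6.71 and 5.86 FPKM for Sh-NC and 7.95, 7.46 and 8.27 FPKM for Sh-YAP1. The lowest Sh-YAP1 library was 0.36 FPKM above the highest Sh-NC library. FZD1 had a log2 fold change of 0.24 (standard error 0.09, 95% interval 0.01 to 0.46, adjusted p = 0.206, limma). FZD1 and FZD2 each have a single annotated transcript, so that no choice between transcripts enters their values. FZD1 lies on chromosome 7 from 91264364 to 91271326 and FZD2 on chromosome 17 from 44557459 to 44559570, both on the plus strand of GRCh38 in GENCODE 29.

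The FPKM ratio between the 2 receptors within a library does not depend on the scaling between libraries. FZD2 was 3.92, 4.0 and 4.39 times the FPKM of FZD1 in Sh-NC and 2.75, 2.85 and 2.75 times in Sh-YAP1. No Sh-YAP1 library reached the ratio of any Sh-NC library. This had to be so, since FZD2 was lower and FZD1 higher in Sh-YAP1, each without overlap. The log2 ratio of FPKM + 1 was 1.88 ± 0.07 (SD, n = 3) in Sh-NC and 1.37 ± 0.02 (SD, n = 3) in Sh-YAP1, a difference of -0.51 (exact permutation p = 0.1, the minimum here). The same comparison for WNT5B to WNT5A gave a difference of 0.08 (p = 1.0, exact permutation; -0.12 without Sh-NC replicate 2 and -0.05 without Sh-YAP1 replicate 1) and for DKK3 to DKK1 of 0.34 (p = 0.3, exact permutation; 0.18 without Sh-NC replicate 2). Only these 3 ratios were computed. FZD2 to FZD1 was the only one of them without overlap between the groups, a separation and a p fixed by the 2 genes themselves.

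**Figure D3:**
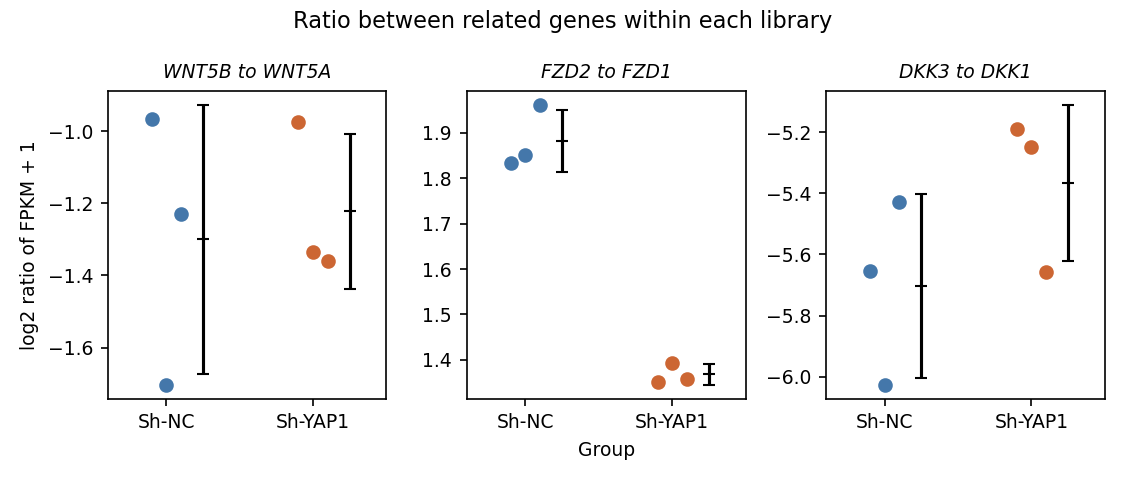
Log2 ratio of FPKM + 1 between related genes, with 1 point per library and the mean ± SD of the 3 libraries beside them; the 3 panels have separate vertical axes. The FZD2 to FZD1 ratio lies between 1.83 and 1.96 in Sh-NC and between 1.35 and 1.39 in Sh-YAP1, while the groups overlap for WNT5B to WNT5A and for DKK3 to DKK1. The separation of FZD2 to FZD1 follows from FZD2 being lower and FZD1 higher in Sh-YAP1, each without overlap.

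LRP6, the co-receptor that carries the canonical signal beside Frizzled, was 7.51, 7.52 and 6.50 FPKM for Sh-NC and 9.03, 7.66 and 9.49 FPKM for Sh-YAP1. The groups stayed apart by 0.14 FPKM, set by Sh-YAP1 replicate 2. The separation was that of the gene sum, since the first transcript row of LRP6 was 7.10, 4.17 and 6.32 FPKM for Sh-NC and 6.93, 7.26 and 6.75 FPKM for Sh-YAP1, and none of its 4 rows above 0 kept the groups apart. LRP6 had a log2 fold change of 0.25, with a 95% interval from -0.01 to 0.50 and an adjusted p of 0.237 (limma).

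CTNNB1, which encodes β-catenin, was 108, 137 and 131 FPKM for Sh-NC and 136, 143 and 146 FPKM for Sh-YAP1. Sh-NC replicate 1 was the lowest library, and Sh-NC replicate 2 exceeded Sh-YAP1 replicate 1. For CTNNB1 the log2 fold change was 0.18 (95% interval -0.06 to 0.42, adjusted p = 0.34, limma) and 0.08 without Sh-NC replicate 1. These values are of RNA, and β-catenin is mainly controlled through the stability of its protein, which was not measured here. ULK4 overlaps CTNNB1 on the opposite strand, at 1.82 FPKM for Sh-NC and 2.12 FPKM for Sh-YAP1.

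AXIN2, the scaffold protein and most widely used readout of β-catenin activity, was 1.23, 1.88 and 1.11 FPKM for Sh-NC and 1.79, 1.51 and 1.64 FPKM for Sh-YAP1. The Sh-YAP1 libraries all lay within the range of the Sh-NC libraries. The mean was 1.41 ± 0.41 FPKM for Sh-NC against 1.65 ± 0.14 FPKM for Sh-YAP1 (SD, n = 3 in each). AXIN2 had a log2 fold change of 0.15 with a 95% interval from -0.19 to 0.49. With a library left out, it ranged from 0.06 without Sh-NC replicate 3 to 0.29 without Sh-NC replicate 2. With pseudocounts of 0.1 and 0.01 in place of 1 it was 0.24 and 0.26.

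DKK1, a secreted inhibitor that binds LRP5 and LRP6, was the most abundant secreted member. DKK1 was 107.7, 115.7 and 118.3 FPKM for Sh-NC and 77.5, 82.6 and 107.6 FPKM for Sh-YAP1. The groups did not overlap, but Sh-YAP1 replicate 3 was only 0.11 FPKM below Sh-NC replicate 1. The mean was 113.9 ± 5.54 FPKM for Sh-NC against 89.2 ± 16.1 FPKM for Sh-YAP1 (SD, n = 3 in each), or 21.7% lower. On the log2 scale the difference was -0.36 (standard error 0.13, 95% interval -0.67 to -0.05, adjusted p = 0.171, limma). Without Sh-YAP1 replicate 3 it was -0.50 (adjusted p = 0.0781, limma), and over the other libraries left out in turn it lay between -0.40 and -0.27. The antisense gene PRKG1-AS1, which overlaps DKK1, was at 1.16 FPKM for Sh-NC and 0.93 FPKM for Sh-YAP1.

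DKK3, a relative of DKK1 that is not known as a regular LRP6 ligand, was 1.16, 0.79 and 1.77 FPKM for Sh-NC and 1.15, 1.20 and 1.15 FPKM for Sh-YAP1. The Sh-YAP1 libraries lay within the range of Sh-NC. For DKK3 the log2 fold change was -0.02, with a 95% interval from -0.43 to 0.38, and it was 0.14 without Sh-NC replicate 3.

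Promoter sequences in the RefSeq table (GRCh38.p14) were found for 5 of the 10 genes, WNT5A, WNT5B, FZD1, CTNNB1 and DKK1. The 250 bases before each start site were searched on both strands for GGAATG, the core read by TEAD factors, and for CTTTGA, the core read by TCF/LEF factors. DKK1, the only one of the 5 genes with a match, had 1 TEAD core, 50 to 45 bases before the start site, and 2 TCF/LEF cores, 149 to 144 and 95 to 90 bases before it. Of all 35116 windows of this length, 11.9% held the TEAD core, 11.2% the TCF/LEF core and 1.5% both. The DKK1 window is chr10:52314031-52314280 on the plus strand. Exons annotated in GENCODE 29 cover all 250 bases of it, as they do for the CTNNB1 window, 1 WNT5A window and 1 WNT5B window. The DKK1 window is printed because it holds both cores. Beside it stands the other WNT5A window, chr3:55481399-55481648 on the minus strand, with neither core and with 0 bases in exons. The sequences run 5′ to 3′ and the capitals mark the matches:
DKK1: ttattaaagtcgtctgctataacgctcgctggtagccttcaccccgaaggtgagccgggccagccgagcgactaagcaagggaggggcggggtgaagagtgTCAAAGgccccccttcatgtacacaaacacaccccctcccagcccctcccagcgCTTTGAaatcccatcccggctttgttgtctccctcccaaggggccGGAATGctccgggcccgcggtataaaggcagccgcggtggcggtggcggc
WNT5A: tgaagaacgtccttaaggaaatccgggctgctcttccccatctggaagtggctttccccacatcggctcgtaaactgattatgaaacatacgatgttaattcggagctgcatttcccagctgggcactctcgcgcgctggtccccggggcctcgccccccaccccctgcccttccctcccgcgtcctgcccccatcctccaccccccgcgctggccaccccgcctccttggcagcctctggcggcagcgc
A match to 6 letters is a description of the sequence, and binding to these windows was not measured in these data.

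In GENCODE 29 on GRCh38, the ligand genes WNT5A (chr3:55465715-55490539, minus strand), WNT5B (chr12:1529891-1647243, plus strand) and WNT7B (chr22:45920362-45977129, minus strand) lie on 3 chromosomes. LRP6 lies at chr12:12116025-12267012 on the minus strand and CTNNB1 at chr3:41194741-41260096 on the plus strand. AXIN2 (chr17:65528563-65561647, minus strand), DKK1 (chr10:52314296-52318042, plus strand) and DKK3 (chr11:11963106-12009769, minus strand) complete the set.

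The deposited values are listed per transcript without transcript names, and the number of rows per gene equals the number of GENCODE 29 transcripts for each of the 10 genes. WNT7B was nearly a single row, which held 99.5% of its FPKM. In DKK1 the first row by mean held 83.7%, and it was 102.3, 105.9 and 77.0 FPKM for Sh-NC and 72.4, 74.9 and 77.4 FPKM for Sh-YAP1. That row overlapped between the groups through Sh-NC replicate 3 and Sh-YAP1 replicate 3. In those same libraries the second row of DKK1 was at 29.9 and 21.9 FPKM, against at most 0.08 FPKM in the other 4. The gene sum of DKK1 therefore parted the groups where its main row did not.

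The rows of CTNNB1 varied widely between libraries. Of its 56 rows, 26 had a mean of at least 0.1 FPKM, of which 12 were higher and 14 lower in Sh-YAP1. Its first row by mean was 0.42, 62.7 and 77.8 FPKM for Sh-NC and 47.9, 11.4 and 52.4 FPKM for Sh-YAP1, or between 0.4% and 59.5% of the gene. The fourth row was 63.8 FPKM in Sh-YAP1 replicate 2 and no more than 2.11 FPKM elsewhere. The gene sum of CTNNB1 varied only from 108 to 146 FPKM. When the sum was limited to rows above 0 in all 6 libraries, the log2 fold change of CTNNB1 was 0.05 in place of 0.18.

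AXIN2 was similar at a low level. Its first row made up 74.0%, 15.4% and 44.1% of the gene in Sh-NC and 62.6%, 4.6% and 42.7% in Sh-YAP1. A single row of AXIN2 was above 0 in all 6 libraries, and with that row alone the log2 fold change was 0.02. In WNT5B the first row ranged from 0% to 91.0% of the gene. Changes of single transcripts were therefore not compared for these genes.

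**Figure D4:**
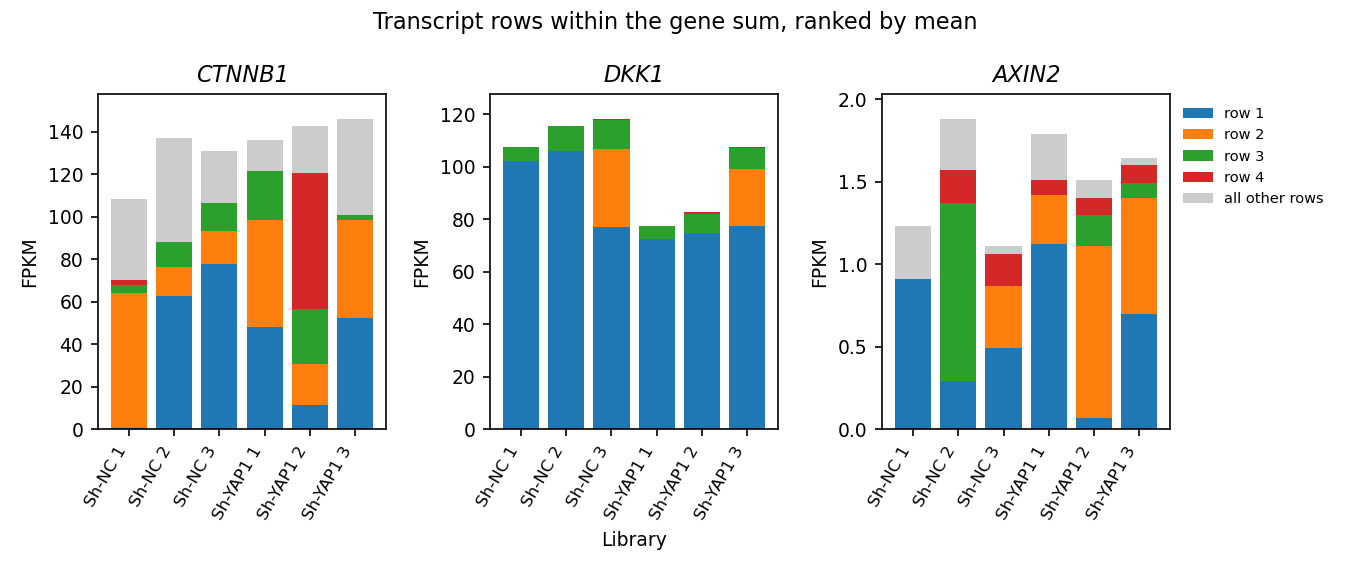
FPKM of CTNNB1, DKK1 and AXIN2 in each library, stacked by transcript row in order of the mean, with rows after the fourth in grey. The share of each row shifts between replicates of a group more than the height of the bars does in CTNNB1, and the second row of DKK1 is visible only in replicate 3 of both groups.

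The rest of the pathway was read from lists of 105 further genes, of which 64 reached the filter. Of these 64, 4 passed an adjusted p of 0.05 (limma), against 3.38% of all genes, 2 of them higher and 2 lower in Sh-YAP1. The groups did not overlap for 19 of the 64 (29.7%), close to the 29.4% of all genes. WNT9A, another WNT ligand, was 0.88, 0.93 and 0.97 FPKM for Sh-NC and 1.67, 2.47 and 2.18 FPKM for Sh-YAP1, a rise of 0.68 on the log2 scale (adjusted p = 0.0409, limma), or of 1.09 and 1.16 with pseudocounts of 0.1 and 0.01 in place of 1. FZD8, another Frizzled receptor, rose from 7.43 ± 0.78 to 10.9 ± 0.62 FPKM (SD, n = 3 in each group), or 0.50 (adjusted p = 0.0484, limma). TNKS2, a tankyrase that marks AXIN proteins for degradation, fell from 15.1 ± 0.35 to 10.7 ± 0.22 FPKM (SD, n = 3 in each group), or -0.46 (adjusted p = 0.0245, limma). CCND1, the G1 cyclin and a target of several pathways including β-catenin, fell from 275.7 ± 3.53 to 209.1 ± 4.24 FPKM (SD, n = 3 in each group), or -0.40 (adjusted p = 0.023, limma). None of these 4 calls survived the removal of any single library: without each in turn, the adjusted p (limma) was 0.0525 to 0.135 for WNT9A, 0.0768 to 0.146 for FZD8, 0.0687 to 0.0893 for TNKS2 and 0.0525 to 0.0917 for CCND1. With no filter on low values, WNT9A (adjusted p = 0.12) and FZD8 (adjusted p = 0.09) also missed the threshold of limma.

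By role, 8 of 21 ligand and secretion genes reached the filter, 2 with a higher and 6 with a lower mean in Sh-YAP1. WNT9A was the only one called. WLS, which carries WNT proteins to the cell surface, was the highest of them at a mean of 27.7 FPKM, and WNT1, WNT3A, WNT6, WNT7A, WNT8A and WNT16 were listed at 0 in all 6 libraries. Among the receptors, 12 of 16 were tested, 9 with a higher and 3 with a lower mean in Sh-YAP1, against 7350 and 7420 of all genes tested. FZD8 was the only receptor called. LRP5, the partner of LRP6 and the highest receptor gene at a mean of 51.6 FPKM, was 44.5 ± 4.90 FPKM for Sh-NC against 58.7 ± 1.62 FPKM for Sh-YAP1 (SD, n = 3 in each, adjusted p = 0.0755, limma). ROR2, a WNT5A receptor, did not exceed 0.02 FPKM, and ROR1 was between 4.22 and 8.34 FPKM.

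DKK1 and DKK3 were 2 of only 3 among 15 secreted inhibitors and DKK receptors that reached the filter, the third being KREMEN1. All 3 had a lower mean in Sh-YAP1. The secreted antagonists SFRP1, SFRP2, SFRP4, SFRP5, FRZB and WIF1 stayed at or below 0.31 FPKM in every library. Of the R-spondins, LGR receptors and receptor ubiquitin ligases, 3 of 9 were tested and 0 were called, with LGR4 the highest at a mean of 20.1 FPKM. All 16 genes of the Dishevelled and destruction complex list, AXIN2 included, were tested, and TNKS2 was the only one called, while CSNK1D had the highest mean at 59.0 FPKM. Among 13 tested genes for β-catenin and its nuclear partners, 0 were called, and CTNNB1 was the highest.

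The list of β-catenin targets holds feedback genes such as AXIN2 and DKK1 beside targets that do not restrain the pathway, such as CCND1, MYC, CD44 and LEF1. Of its 17 genes 11 were tested, 2 with a higher and 9 with a lower mean in Sh-YAP1, against 7350 and 7420 of all genes tested. Only CCND1 of this list was called. The median log2 fold change was -0.09, against -0.001 over all genes, and the median size without regard to sign was 0.15 against 0.16. The targets NKD1, NKD2, LGR5, NOTUM and APCDD1 were at 0.11 FPKM or less in every library. In the list of cell polarity and non-canonical genes 15 of 17 were tested and 0 were called. Its highest gene, RHOA, was 284.1 ± 32.0 FPKM for Sh-NC against 222.6 ± 3.83 FPKM for Sh-YAP1 (SD, n = 3 in each), with an adjusted p of 0.102 (limma).

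**Figure D5:**
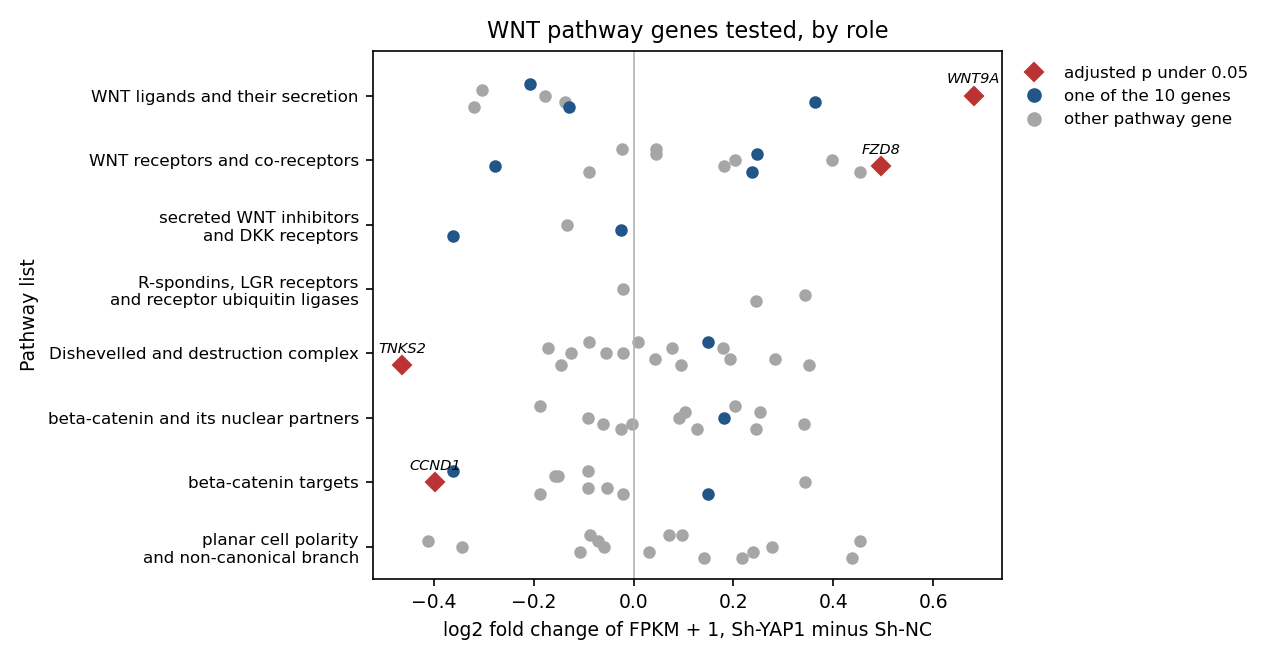
Log2 fold change of FPKM + 1, Sh-YAP1 minus Sh-NC, of every tested WNT pathway gene, by list; a gene held by several lists is drawn in each. Red diamonds mark the 4 genes past an adjusted p of 0.05 (WNT9A, FZD8, TNKS2 and CCND1), blue points the 10 genes described here and grey points the others.

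Of the 10 genes, WNT7B had the smallest p, and the genes most like it were sought among all 14770 tested, by the root mean square distance between log2(FPKM + 1) values centred on each gene's mean over the 6 libraries. The nearest were PDE2A (0.03), KIRREL1 (0.03) and USO1 (0.04). Their log2 fold changes were 0.35, 0.33 and 0.37, and USO1 was the only one of the 3 past the adjusted threshold (adjusted p = 0.0471, limma). Fold changes near that of WNT7B follow from choosing the genes by their profiles over these same libraries.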

How the data were processed

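The study's methods place RNA-sequencing at LC-Bio but cite a different series, so that this step may not refer to these libraries. The authors deposited FPKM with 2 decimals, 1 value per transcript row and library, for 229420 rows. The submitters' processing notes name HISAT2 2.0, Bowtie 0.12.2 and the build hg19; the quantification tool, annotation and filters are not given in the sources used here. Libraries were grouped by the hairpin in their titles.

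Rows sharing a gene identifier were summed, and 60401 of 60612 identifiers had a symbol. The 14770 genes whose mean over all libraries reached 0.5 FPKM were compared as log2(FPKM + 1) with limma 3.58.1 (lmFit, eBayes with trend) under R 4.3.3; the model held the hairpin alone, and p-values were adjusted by Benjamini-Hochberg, with a threshold of 0.05. Intervals are 95% intervals from limma. Single values were tested by exact permutation (scipy 1.17.1). Count models were not used because the values are FPKM. The code was tested on simulated data. Gene positions are from GENCODE 29 on GRCh38, not the build of the notes; no coordinate of the files was used.

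The genes and lists were chosen with earlier results of these data known. Named were the 10 genes, pathway genes past the threshold, the highest gene of each list, the nearest profiles of the gene with the smallest p and YAP1; other names were chosen with values in view. Alternatives concerned the pseudocount, scaling, filter, trend, replicate block, row choice and each library left out.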

Additional observations from a re-analysis of the deposited data

How the results depend on the processing

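Over 16 alternatives, the log2 fold changes of the 10 WNT genes gave 158 values, of which 0 passed an adjusted p of 0.05 (limma); the lowest adjusted p was 0.0601, for WNT7B. WNT5B could not be fitted in 2 of them, since it fell below the filter. Direction held in 155 values and turned in 3, all with a library left out: WNT5B was 0.03 without Sh-NC replicate 1 and 0.067 without Sh-YAP1 replicate 2 (range -0.36 to 0.07), and DKK3 was 0.14 without Sh-NC replicate 3 (range -0.18 to 0.14). The WNT5B to WNT5A difference of log2 ratios turned to -0.038 and -0.075 with pseudocounts of 0.1 and 0.01, was 0.58 with rows above 0 in all 6 libraries, and ranged from -0.12 to 0.24 with a library left out; FZD2 to FZD1 and DKK3 to DKK1 kept their direction. The number of genes called moved from 499 to 232 with no filter, 230 with rows above 0 in all 6 libraries and 78 to 171 with a library left out. The number of pathway genes called moved from 4 to 2, 2 and 0 (0 to 0 with a library left out) under the same settings, CCND1 and TNKS2 being the 2 that passed. That number was 5 with quantile normalization and 3 with no trend. WNT9A and FZD8 each passed in 6 of 16 alternatives, and CCND1 and TNKS2 in 9. The cause was not tested, except that leaving out a library leaves fewer samples. YAP1 missed the threshold in 1 setting, rows above 0 in all 6 libraries (-1.78, adjusted p = 0.199, limma).

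In a fit with a replicate block, 1 gene and 0 pathway genes were called, and 2779 genes had an unadjusted p under 0.05, against 3241 without it. Deviations of same-numbered libraries correlated at -0.028, 0.062 and 0.004 across genes, and not every library correlated best with its own number, so the numbers were not taken as pairs. The block changed no call among the 10 WNT genes. Without counts, what depth limits could not be computed; the values have 2 decimals, so genes under 1 FPKM are coarse.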
